A study of Mus musculus with 4 samples.

Results

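The regions described here are 309 places where the summit of an IgD peak in one pair of libraries lay at most 200 bp from the summit of an IgD peak in the other pair. A summit is the base at which the peak caller found the highest fragment pile-up within a peak. Peaks of 20000 bp or wider were left out of both lists before matching. The 309 were found among 11082 peaks of pair 1 and 40310 peaks of pair 2 narrower than 20000 bp, out of 52003 deposited peaks in all, and each summit matched 1 summit of the other list. They made up 2.79% of the pair 1 peaks and 0.767% of the pair 2 peaks. They were chosen by the summit positions and peak widths of both lists, so their positions, folds and counts are given as a description, and no test was made on them.

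The study carried out chromatin immunoprecipitation followed by sequencing (ChIP-seq) on pro-B cells from the bone marrow of wild-type (WT) mice, sorted as B220+, IgM- and CD43+ cells. Anti-IgD was used in 2 libraries and mouse IgG, the isotype control, in 2 more, and the mice of all groups were WT. Pair 1 is IgD library 1 against IgG library 1, pair 2 is IgD library 2 against IgG library 2, and whether separate mice gave the pairs is not in the labels. The series title names nuclear IgD and the expression of E2f3, which encodes a transcription factor that drives cells into the cell cycle.

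IgD is an immunoglobulin class best known as an antigen receptor on the surface of mature naive B cells. Pro-B cells stand at the stage at which the heavy chain locus is rearranged, before a complete antibody is made. In ChIP-seq, DNA fragments bound to the antibody's target pile up where the target sits on chromatin, and a factor that binds short DNA sites usually gives sharp summits that recur at nearly the same base in repeated experiments.

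Few of the coinciding summits lay at an annotated transcription start, and 4 of the 8 start windows that lay under a peak of either pair are shown here, as places where the regions bear on a promoter. Among 297 coinciding summits with a start window in the RefSeq table on their chromosome, 3 (1.01%) lay within 1000 bp of an annotated start. Each sequence below is the 250 bases before a start, from RefSeq on GRCm38.p6 (mm10), written 5′ to 3′ along the gene's own strand. Capitals mark every match to CANNTG, the E-box letters, searched on both strands, which read the same. The first belongs to 1700027H10Rik, a long non-coding RNA gene beside Pcdh10, at chr3:45439310-45439559 on the minus strand, and it lay wholly under the peak of both pairs. The second, from the provisional gene Gm8104 at chr14:43057552-43057801 on the plus strand, and the third, from the vomeronasal pheromone receptor gene Vmn2r55 at chr7:12684992-12685241 on the minus strand, lay under the pair 1 peak. The last, from Bcl2a1a, an anti-apoptotic member of the BCL2 family, at chr9:88956670-88956919 on the plus strand, lay under the pair 2 peak.
1700027H10Rik: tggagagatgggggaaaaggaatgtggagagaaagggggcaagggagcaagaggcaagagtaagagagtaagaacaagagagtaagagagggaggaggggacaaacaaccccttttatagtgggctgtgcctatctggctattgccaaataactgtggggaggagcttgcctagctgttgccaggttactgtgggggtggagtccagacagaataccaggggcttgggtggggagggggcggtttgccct
Gm8104: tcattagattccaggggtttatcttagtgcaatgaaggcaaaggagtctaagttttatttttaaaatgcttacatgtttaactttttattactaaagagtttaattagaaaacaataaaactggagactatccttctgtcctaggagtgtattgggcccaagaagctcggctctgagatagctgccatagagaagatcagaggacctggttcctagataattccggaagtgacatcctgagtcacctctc
Vmn2r55: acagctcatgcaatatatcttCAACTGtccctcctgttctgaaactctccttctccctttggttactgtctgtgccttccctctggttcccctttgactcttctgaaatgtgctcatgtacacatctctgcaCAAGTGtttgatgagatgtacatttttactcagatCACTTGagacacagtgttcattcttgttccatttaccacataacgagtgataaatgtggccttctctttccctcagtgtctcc
Bcl2a1a: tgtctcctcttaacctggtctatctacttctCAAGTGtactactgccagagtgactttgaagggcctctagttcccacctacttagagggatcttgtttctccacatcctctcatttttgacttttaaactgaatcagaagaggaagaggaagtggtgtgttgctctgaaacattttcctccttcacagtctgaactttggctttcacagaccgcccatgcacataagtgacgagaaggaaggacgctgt

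The 1700027H10Rik window had no CANNTG match, and 68.4% of its bases were purines, against a median of 50% (quartiles 46% and 54.4%) over all 32817 windows of the table. Its summits stood before the start, by 730 bp in pair 1 and 595 bp in pair 2. The Gm8104 window also had 0 matches, the Vmn2r55 window had 3 and the Bcl2a1a window had 1. CANNTG occurred in 66.2% of all windows, so its presence in 2 of these 4 windows is no contrast to start regions at large. A further search for TTTNNCGC, core letters of E2F sites, on both strands gave 0 matches in these 4 windows, and 4.28% of all windows held it. The other windows under a peak were 2 at internal starts of Cdc42bpa, 1 of Olfr1155 and 1 of Gm51716. The Cdc42bpa windows are not printed because they lie inside the gene. One of them, at chr1:179960510-179960759, lay wholly under both peaks, with 3 matches to CANNTG and 1 to TTTNNCGC, and its start was the nearest listed start to any coinciding summit. The other Cdc42bpa window had 2 matches to CANNTG, that of Gm51716 had 3 and that of Olfr1155 had 0, and none of these 3 windows held TTTNNCGC. A match is a run of letters and not a site of binding. No coinciding summit lay inside the printed bases. The pair 2 summit at Cdc42bpa, at base 179960547, did lie inside the window at chr1:179960510-179960759 that is not printed, and the pair 1 summit did not.

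The distance between summits was first examined. At the 309 places the summits were 1 to 200 bp apart, with a median of 95 bp and quartiles of 43 and 153 bp, and 0 shared the same base. Counting for each pair 1 peak the nearest pair 2 summit, 161 lay within 100 bp and 148 between 100 and 200 bp. The next bands held nearly as many, with 150 between 200 and 300 bp and 149 between 300 and 400 bp. Farther out the numbers were lower, with 140 per 100 bp between 400 and 600 bp, 114 between 600 and 800 bp and 100 between 1000 and 2000 bp. In finer bands of 50 bp, the first held 91 peaks, the most of any, and the next 3 held 67 to 81, against 69 to 80 in the 4 bands from 200 to 400 bp. Beyond the first 50 bp, the limit of 200 bp thus cuts through a broad and flat stretch of distances. The median nearest distance over 11077 pair 1 peaks was 7926 bp.

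**Figure D1:**
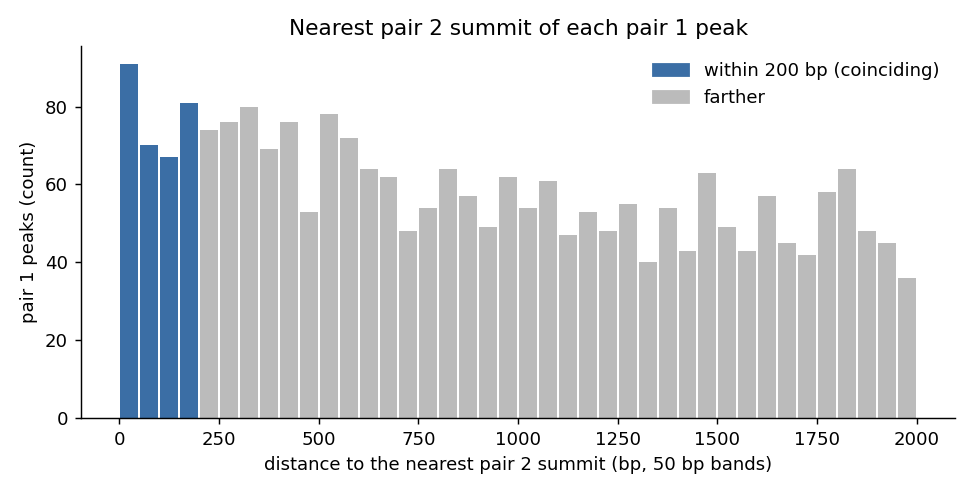
Number of pair 1 peaks (vertical axis) by distance in bp to the nearest pair 2 summit (horizontal axis, bands of 50 bp up to 2000 bp), with coinciding summits in blue and farther ones in grey. The first blue band, with 91 peaks, is the highest. The other 3 blue bands stand level with most grey bands up to 600 bp, and counts beyond 600 bp are lower.

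Members on either side of the limit had like folds. Fold is the authors' deposited ratio of IgD fragments over local background at the summit, and q is their p-value corrected over all sites, given as −log10. The 21 pairs of summits over 190 and up to 200 bp apart had a median fold of 3.46 (2.12 to 5.06) in pair 1 and 3.51 (2.15 to 5.68) in pair 2. The 13 pairs over 200 and up to 210 bp apart, just outside, had 3.46 (2.66 to 4.55) and 3.24 (2.54 to 6.22). For the limit on width, the widest coinciding peak inside was 19267 bp (folds 5.06 and 2.70) and the narrowest outside was 23119 bp (folds 5.25 and 4.69). The width limit left out 24 places whose summits coincided.

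The coinciding peaks were of ordinary strength. Their median fold was 3.46 in pair 1 (range 1.36 to 8.45), the same as the 3.46 of all narrower pair 1 peaks, and 3.99 in pair 2 (range 1.11 to 8.92), against 3.78 for all. A −log10 q of at least 5 was reached in pair 1 by 58 (18.8%), where 15% of all pair 1 peaks reached it. In pair 2 it was reached by 141 (45.6%), where 38.4% of all pair 2 peaks did. Both peaks reached it at 26 places (8.41%, 95% Wilson interval 5.81% to 12.0%, counting error only), and neither did at 136 (44.0%). Separate shares of 18.8% and 45.6% would give such places by themselves, so these joint counts show no link between the pairs.

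A high fold in one pair seldom went with a high fold in the other. Across the 309 places Spearman's rho between the folds was 0.0990 and Pearson's r was 0.0695, as a description, since members of a cluster share their surroundings and all share the same 4 libraries. The fold was higher in pair 2 at 211 places (68.3%). The places with the highest folds show this. The highest pair 1 fold on an assembled chromosome, 7.52, lay 404 bp inside the start of Gm8104, where pair 2 had 2.60. The highest pair 2 fold, 8.92, lay on chromosome X 187049 bp from Gria3, a glutamate receptor subunit gene, where pair 1 had 3.46. Glrx3, a glutaredoxin gene, had 8.45 in pair 2 and 3.20 in pair 1.

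**Figure D2:**
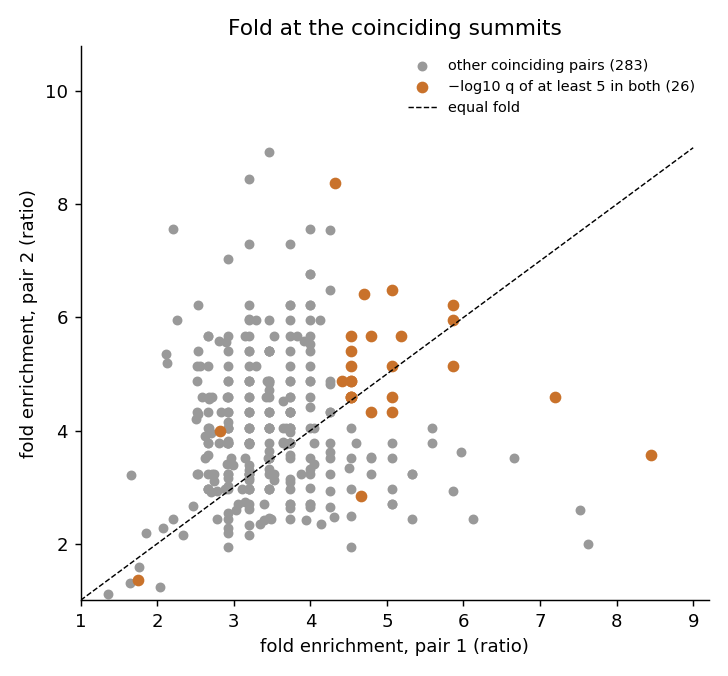
Fold enrichment (ratio) at each of the 309 coinciding places, pair 1 on the horizontal and pair 2 on the vertical axis, each point 1 place, some of them overlapping; orange marks the 26 places with −log10 q of at least 5 in both pairs and the dashed line equal fold. The points form a broad cloud with no visible slope, and 211 of them lie above the line.

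Few fragments stood behind a summit. Solved from fold and p-value, on the assumption that the caller added 1 to fragments and background and did not scale the IgD fragments, the median summit had 13 IgD fragments in pair 1 (6.92 to 22.2, exact Poisson interval at 95% for counting error alone) and 15 in pair 2 (8.40 to 24.7). The commonest background was 2.756 fragments in pair 1 (212 places) and 2.699 in pair 2 (215 places). With that background, 1 fragment more or less changed the fold by 0.266 in pair 1 and by 0.270 in pair 2, which gives the grid of repeated fold values. On that grid the pair 1 quartiles of fold, 2.93 and 3.99, stand for 10 and 14 fragments, both inside the counting interval of the median summit. Over all 309 places, on any background, the pair 1 quartiles of fragments were 11 and 16 and the lowest number was 9. Summits with too few fragments are not called, and how far counting error makes up the spread was not tested.

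The peaks were somewhat broad. Their median width was 1002 bp in pair 1 and 988 bp in pair 2, against 841 bp and 771 bp for all peaks of each list. At 183 places (59.2%) both peaks were under 2000 bp, and at 66 (21.4%) at least 1 of them was 5000 bp or wider. The peaks of the pairs overlapped at 306 places (99.0%), but only 94 (30.4%) overlapped by at least 50% of each peak. The summits were close by the choice of members, which also makes some overlap likely, while the outlines differed at most places. Of all pair 1 peaks under 600 bp, 2.13% coincided, and of those of 5000 bp or wider, 4.18% did.

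Coinciding summits lay mostly outside genes. On chromosomes 1 to 19, X and Y there were 301, and 59 of them (19.6%, 15.5% to 24.5%) were inside a protein-coding gene, in 52 different genes. Over all peaks, 25.8% of pair 1 summits and 38.5% of pair 2 summits were inside one. A further 84 (27.9%) lay more than 3000 bp and at most 100 kb away, and 148 (49.2%, 43.6% to 54.8%) more than 100 kb from any protein-coding gene. The latter share was 43.9% of pair 1 and 29.8% of pair 2 summits. The median distance to a protein-coding gene was 94530 bp, against 59667 bp in pair 1 and 12080 bp in pair 2. In the shares inside genes and beyond 100 kb the coinciding summits stood nearer to pair 1 as a whole than to pair 2, and past it in the direction away from genes. Beyond 500 kb they did not, with 24 summits (7.97%) against 9.67% of pair 1 and 8.09% of pair 2. Summits with no coinciding neighbour within 100 kb had 27.6% inside genes and 44.1% beyond 100 kb, close to pair 1 as a whole. Those with such a neighbour had 12.2% and 53.8%, so the step past pair 1 lay in these. The intervals count neighbouring summits as separate.

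**Figure D3:**
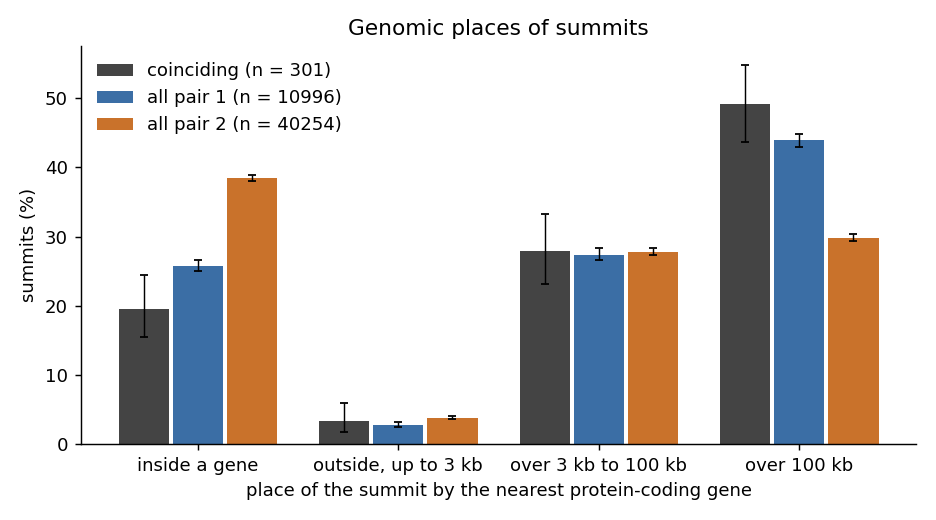
Share of summits in percent (vertical axis, bars from 0, with 95% Wilson intervals for counting error only) by place relative to the nearest protein-coding gene (horizontal axis), for 301 coinciding summits, all pair 1 and all pair 2 summits on chromosomes. The coinciding bar is lowest of its group inside genes, at 19.6%, and highest beyond 100 kb, at 49.2%.

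Within 3000 bp of either end of a protein-coding gene there were 17 coinciding summits (5.65%, 3.56% to 8.86%), against 6.55% of pair 1 and 9.04% of pair 2 summits. The gene table gives no exons, so whether a summit is exonic or intronic was not assigned. Only 0.280% of all protein-coding genes had a coinciding summit inside or within 3000 bp, so absence from a short list is no result about that list. None of the 17 genes was on the list of 22 early B-lineage transcription factors. They were Pcdh10, a neuronal protocadherin, Bcl2a1a, Mras, a small GTPase of the Ras family, Esyt3, a tether between endoplasmic reticulum and plasma membrane, Cdc42bpa, a kinase acting below Cdc42, the terminal complement gene C6, the urinary pheromone carrier gene Mup7, the zinc-finger gene Zfp984, Vmn2r55, the secretoglobin gene Scgb1b19, AY761185, and the provisional or little described genes Gm8104, Gm8126, Gm8127, Gm1993, LOC100504180 and 4933427D14Rik. Several belong to families of close copies (Mup7, Vmn2r55, Scgb1b19, Gm8126 and Gm8127), and how the authors counted reads that map to several places is not given in the sources used here.

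Among these genes, Pcdh10 (chromosome 3, 45378398 to 45434579) had folds of 4.53 and 5.41, with summits 61 bp apart and 2592 bp inside its start. Mras had 4.53 and 5.14, 2244 bp outside the gene. At both genes the −log10 q was over 5 in both pairs. Bcl2a1a (chromosome 9, 88956920 to 88962416) had 3.52 and 5.68, with the pair 1 summit 1411 bp inside its start. Esyt3 had 3.20 and 5.41, and Scgb1b19 had 3.99 and 5.41, each higher in pair 2. Mup7 had 4.79 and 3.51, and Vmn2r55 had 3.99 and 3.24, each higher in pair 1. Cdc42bpa (chromosome 1, 179960079 to 180165606) had the summits nearest to any listed start, 357 bp away in pair 1 and 213 bp in pair 2, and low folds of 3.46 and 2.97 from 12 and 10 fragments.

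Genes that held a coinciding summit inside and came first by the mean of their fold ranks in both lists were of mixed function. Such a place need not have the highest fold in either list. Fut8 (chromosome 12, 77237430 to 77475998), which adds the core fucose to N-glycans, came first of all 309, with folds of 5.86 and 6.22, −log10 q of 9.69 and 10.9, and 21 and 22 fragments. Its summits were 147 bp apart, inside the gene and 52709 bp from the nearest listed start, which is an internal one. Dysf, the muscle membrane repair gene, had 4.26 and 7.54, and no other narrower peak of either list lay within 100 kb of it. Kif16b, a kinesin of endosome transport, held 2 coinciding summits, with folds of 4.26 and 6.49 at one and 3.20 and 7.30 at the other. Nell1, a secreted factor of bone formation, had 7.19 and 4.60 with summits 2 bp apart, 182643 bp from its start.

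The others named by the same order were less strong. Clcn1, the skeletal muscle chloride channel gene, had folds of 4.41 and 4.87, and Phf14, a PHD finger gene, had 4.53 and 4.60, so both were close to equal in the pairs. The growth factor gene Pdgfc had 3.99 and 4.87, Pkd2l1, a cation channel gene, had 3.99 and 5.14, and Ccdc150 had 3.92 and 5.59. Grxcr1, a gene of hair cell bundles, was the only one of these 8 genes with the higher fold in pair 1, with 4.60 and 3.78. Pid1, an adaptor gene, and its neighbour Dner, a Notch ligand gene, both had 3.46 in pair 1, with 5.95 and 5.41 in pair 2.

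The strongest places outside genes were scattered. Next after Fut8 came a summit on chromosome 11, 212483 bp from Clint1, an adaptor of clathrin coats, with folds of 5.06 and 6.49. A summit 44220 bp from Prex2, an exchange factor for Rac, had 5.86 and 5.95. A summit 139748 bp from Gulp1, an engulfment adaptor gene, had 4.70 and 6.41. One 266024 bp from Triqk had 4.32 and 8.38. A summit 469047 bp from Tns3, a focal adhesion gene, had 5.19 and 5.68, one 494472 bp from the zinc-finger gene Zfp462 had 4.79 and 5.68, and one 26000 bp from the urinary protein gene Mup2 had 5.86 and 5.14. Of the first 10 by mean rank of fold, 3 were inside a gene, 2 lay within 100 kb of one and 5 lay farther away.

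The closest summits were not the highest. Summits 1 bp apart, the smallest distance, lay 71872 bp from Rbm46, a germ cell RNA-binding protein gene (folds 2.67 and 4.56), and 53108 bp from Nebl (3.20 and 5.14). The 91 summits within 50 bp of each other had median folds of 3.46 and 4.05, close to those of all 309.

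Coinciding summits lay mostly where peaks were crowded. Around the median coinciding summit, 18.0 other narrower pair 1 peaks lay within 100 kb, against 14.0 around any pair 1 summit, and 16.0 other pair 2 peaks, against 7. At 232 places (75.1%) 10 or more pair 2 summits lay within 100 kb, as they did for 40.7% of all pair 1 peaks. The share of pair 1 peaks that coincided was higher in each class of that number than in the class before, from 0.517% (9 of 1741) with 1 or 2 pair 2 summits, over 1.36% with 3 or 4 and 1.71% with 5 to 9, to 5.14% (232 of 4512, 4.53% to 5.83%) with 10 or more. The coinciding pair 2 summit is itself counted in these classes, so the lowest class, with none, could hold 0 only. The part that local crowding plays in the coincidence of summits was not tested.

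**Figure D4:**
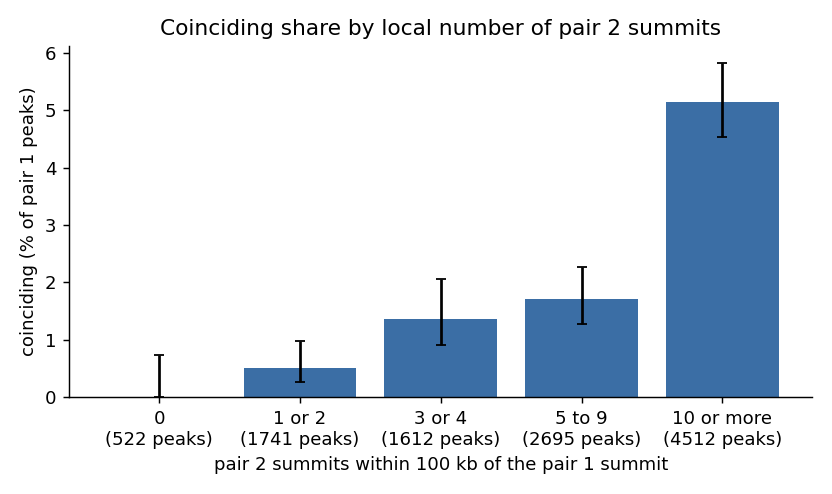
Share of pair 1 peaks in percent that coincide (vertical axis, bars from 0, 95% Wilson intervals for counting error only) by the number of pair 2 summits within 100 kb (horizontal axis, with the number of pair 1 peaks in each class). The bars climb from 0 to 5.14%.

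Joined where neighbours were at most 100 kb apart, the 309 summits made 201 loci. Of these, 146 were single summits and 32 held 2, while 23 clusters held 3 to 7 summits, 99 in all (32.0%). In sum 163 summits (52.8%) had a coinciding neighbour within 100 kb. Inside protein-coding genes lay 27.6% of single summits and 12.2% of those in clusters of 2 or more, a difference that was not tested. Their median folds were alike, 3.46 and 3.97 for single summits and 3.46 and 4.05 in clusters. The spans of the 23 clusters, from first to last summit, had a median of 95.3 kb and summed to 2.53 Mb. They held 506 pair 1 and 397 pair 2 peaks, or 200 and 157 per Mb, where the whole lists had 4.22 and 15.1 per Mb, though a span is drawn from peak to peak and so is dense by construction. Of the pair 1 peaks in the spans, 19.6% coincided. That share is also high by construction, since each span ends at coinciding summits and was kept for holding 3 or more.

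The gene nearest to the most coinciding summits was Frk (chromosome 10, 34483400 to 34611232), which encodes a Src-related tyrosine kinase. It had 11 of them over 432 kb, in a cluster of 4 and a cluster of 7, with 2 before the gene, 2 inside it and 7 beyond its far end. The 4 stood 5826 and 3966 bp before the start and 20692 and 35054 bp after it. Folds were 2.93 to 5.06 in pair 1 and 2.97 to 5.68 in pair 2, and none of the 11 had a −log10 q of 5 or more in both pairs. The stretch of 492 kb around them held 125 pair 1 and 63 pair 2 peaks, so the coinciding ones were a small part of a field of similar peaks.

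**Figure D5:**
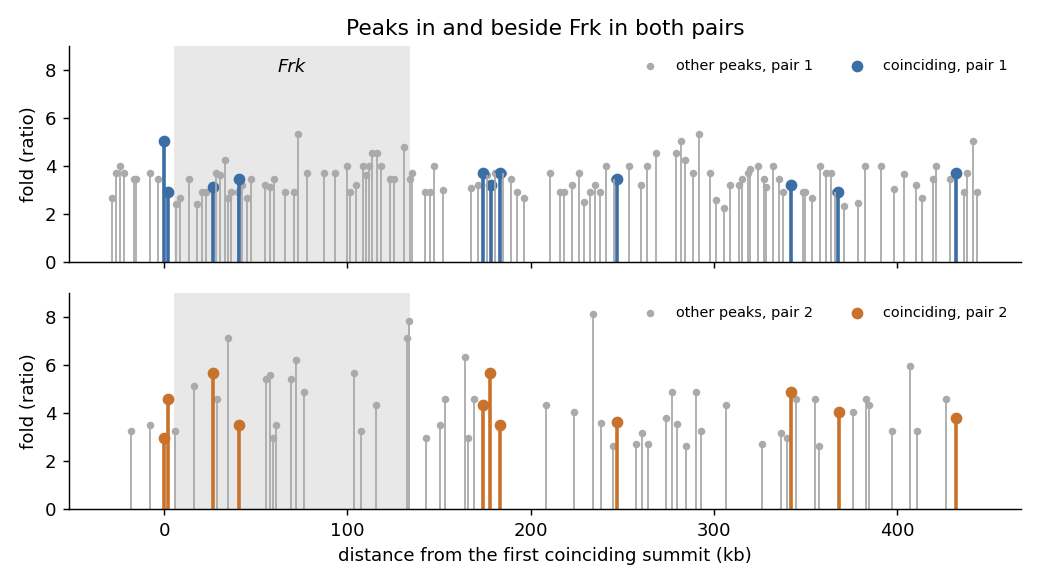
Fold (ratio, vertical axes) of every narrower peak in pair 1 (top) and pair 2 (bottom) by distance in kb from the first coinciding summit (horizontal axis), with the 11 coinciding peaks in colour, the others in grey and the Frk gene shaded. Coinciding peaks have folds within the range of the grey ones around them, at most 5.06 in pair 1 and 5.68 in pair 2.

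The other cluster of 7 lay between Triqk, 94.4 kb to the left, and Runx1t1, a transcriptional corepressor gene 420 kb to the right, over 247 kb of chromosome 4 with no protein-coding gene. Its folds were 2.66 to 4.53 in pair 1 and 2.70 to 8.38 in pair 2. On chromosome 2 there were 2 clusters of 6, one with 4 summits inside Plxdc2 and 2 beyond it (folds 2.62 to 3.73 and 3.78 to 4.87), the next between Plxdc2 and Nebl, a gene of actin filaments in the heart (2.93 to 3.46 and 2.70 to 5.68). In both clusters pair 2 had the higher median fold.

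The clusters of 5 lay in more varied surroundings. One covered Pcdh10 and the start of 1700027H10Rik, with folds of 2.21 to 4.53 and 2.43 to 5.41. One began inside Bcl2a1a and ran 95.1 kb towards Trim43b (3.39 to 4.26 and 2.70 to 5.68). One spanned the adenosyl-methionine synthesis gene Mat2b, the hyaluronan receptor gene Hmmr, Nudcd2 and the cyclin gene Ccng1 on chromosome 11 (2.21 to 3.73 and 2.15 to 7.57), with 1 summit inside a gene, Hmmr. One lay in the provisional genes Gm8126 and Gm8127 on chromosome 14 (2.08 to 5.86 and 2.28 to 4.05), 1.01 kb from a block of 20000 bp or wider. The last, on chromosome 9 between the retinal matrix gene Impg1 and the serotonin receptor gene Htr1b, had no protein-coding gene in its 146 kb (2.93 to 4.53 and 2.65 to 5.14).

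Smaller clusters lay both at genes and between them. Of the 21 clusters of 3 or more on chromosomes, 13 had no protein-coding gene in their span. Non-coding genes were not counted here, and the same share for other spans of like length was not computed. Those of 4 lay at Prex2, between Nmbr and Cited2, at Frk, between Ebf1 and Clint1, and between Tmem38b and Zfp462. Those of 3 included clusters beside Slc39a10, Lrrc4c, Gm14147, Speer4f2 and Reg3g, and 1 across Cep70 and Esyt3 up to Mras. Ebf1, a transcription factor that fixes B cell identity, was 631 kb from its cluster, and the nearest coinciding summit to it was a single one 387888 bp away, with folds of 3.73 and 6.22.

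By chromosome, the largest numbers were 35 on chromosome 2, 29 on chromosome 4, 28 on chromosome 1 and 27 on X. As a share of pair 1 peaks, chromosome 11 had 4.73% (15 of 317) and chromosome 9 had 4.25% (17 of 400), while X had 1.90% (27 of 1423) and chromosome 13, which carries E2f3, had 1.32% (5 of 378). Chromosomes 16 (1.09%), 19 (1.16%) and 18 (1.22%) were lower than chromosome 13. X held 8.74% of coinciding summits, between the 12.8% of pair 1 and the 5.36% of pair 2. Y had 0 of 52. These shares rest on few summits, and the interval was 2.89% to 7.66% for chromosome 11 and 0.566% to 3.06% for chromosome 13. Within 100 kb of a block of 20000 bp or wider lay 91 coinciding summits (29.4%), against 23.8% of pair 1 and 6.26% of pair 2 peaks.

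A few members stood on a high background, 20 fragments or more in either pair. There were 7, among them 4 on the unplaced sequence chrUn_JH584304, with folds of only 1.36 to 2.04 in pair 1 and 1.11 to 1.59 in pair 2. Another was LOC100504180, near Duxf3, with 162 and 125 fragments and folds of 2.82 and 3.99. Sequences outside the assembled chromosomes held 8 coinciding summits among 86 pair 1 peaks (9.30%, 4.79% to 17.3%), the highest share of any group in the count by chromosome.

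The gene of the study's title had no coinciding summit. The nearest to E2f3 was 20440 kb away, and those nearest to Ighd and Ighm, the genes of the IgD and IgM heavy chains, were 24661 and 24673 kb away. Gene lists were counted by a summit inside a gene or within 3000 bp of it. Over all 21774 protein-coding genes, 61 (0.280%) had a coinciding one, while 6.16% had any pair 1 summit and 37.5% any pair 2 summit. Against so low a background, 0 in a short list is no result about the list. None of the lists of E2F family members, E2F targets, B-lineage transcription factors, pro-B surface genes, recombination genes, heavy chain constant genes, or myeloid, T cell and erythroid markers held a coinciding summit. Nor did the families of olfactory receptor (1109 genes), Pramel (46), Btbd35f (29) and Skint (11) genes, of which the first is not a short list. The lists of 352 vomeronasal receptor, 397 zinc-finger (Zfp), 22 Mup and 35 protocadherin and cadherin genes had 1 each. These were Vmn2r55 (0.284% of its list), Zfp984 (0.252%), Mup7 (4.55%) and Pcdh10 (2.86%). No miRNA hairpin of the RefSeq table lay under a coinciding peak.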

How the data were processed

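The ChIP-seq libraries and groups are those named in the labels. Per the submitters' processing notes, HISAT2, MACS2 and ChIPseeker were used with genome build mm10; their versions, settings and handling of multiply mapping reads were not found there. The fold enrichment (a ratio) and the −log10 p and −log10 q of each peak are the authors' deposited values, called in each pair separately, with a lowest −log10 q of 1.31 and 1.30. Read totals were not used here, so depth is known only from fragments solved at summits, and 95% intervals cover counting error only.

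Summits were matched in Python 3.11.15 (numpy 2.4.6, pandas 2.3.3, scipy 1.17.1, matplotlib 3.10.9) after leaving out peaks of 20000 bp or wider. Places were read from RefSeq genes on GRCm38, with 49595 genes kept, 21774 of them protein-coding, and 402 entries with coordinates outside the chromosomes left out. Start windows came from RefSeq promoters, 250 bases before each start, none of them on chromosome 18. Scripts were tested on simulated data.

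The regions, gene lists and the rule for named genes were chosen with earlier results of these data known. The rule takes E2f3, Ighd and Ighm, genes with a coinciding summit within 3000 bp of an end (up to 25), the first 15 genes holding one, genes in or next to clusters of 3 or more, and the nearest genes of the first 10 places by mean rank of fold and of the 5 closest summit pairs. Results at 1 gene that the rule names are not reported here. Gria3 and Duxf3 were named outside it after their values were seen. Alternatives were other distances, widths, overlaps, q values, windows and gaps.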

Additional observations from a re-analysis of the deposited data

How the results depend on the processing

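For the 9 values recomputed, 27 alternatives moved the value and 53 did not, by its own interval or, for the number of summits, by a factor of 1.5. The number of coinciding summits was 91 within 50 bp, 161 within 100 bp and 737 within 500 bp. It was 183 with both peaks under 2000 bp, 94 with 50% reciprocal overlap and 26 where both peaks had −log10 q of at least 5. Over all annotated genes, 29.2% were inside a gene and 11.3% near an end. The share near an end of a protein-coding gene was 1.66% with a window of 1000 bp, 16.3% with 10000 bp and 12.0% at the stricter q. The share in clusters was 19.8%, 32.3% and 71.1% for summits within 50, 100 and 500 bp. It was 39.9% and 46.9% for peaks under 2000 and 5000 bp, 21.3% with reciprocal overlap and 0% at the stricter q, which leaves 26 summits. With gaps of 20 kb and 500 kb it was 24.6% and 65.0%. At the stricter q, 3.85% lay on X (1 of 26, 0.682% to 18.9%) and the median folds were 4.68 and 4.87. With reciprocal overlap the pair 1 median fold was 3.20. The share with −log10 q of at least 5 in both was 13.2% within 50 bp, 4.92% under 2000 bp and 4.26% with reciprocal overlap. Where fewer summits enter, clusters thin by construction, and the cause of the other moves was not tested. No paired analysis was possible because no result comes from a test and each list is already 1 pair. Leaving out a pair in turn gives no value, since coincidence needs both lists. Few fragments a summit limit the fold and the summit position.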

Other observations

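Coinciding summits were also counted by the strength of the pair 1 peak. Of 2678 pair 1 peaks with a −log10 q under 2, 71 coincided (2.65%), and of 1533 with 5 to 10, 46 did (3%). Of the 133 with 10 or more, 12 did (9.02%, 95% Wilson interval 5.24% to 15.1%, counting error only). Of these 12, 5 were on sequences outside the assembled chromosomes and 2 more had a background of 20 fragments or more. On chromosomes 1 to 19, X and Y alone, counted so after seeing the data, 7 of 124 coincided (5.65%, 2.76% to 11.2%), against 2.63% with a −log10 q under 2 and 3.03% with 5 to 10. At the 26 places with −log10 q of at least 5 in both pairs, 25 of them on chromosomes, the median folds were 4.68 and 4.87. Of these, 6 were inside a protein-coding gene, 12 lay over 100 kb from one and 15 were in clusters of 2 or more formed by all 309. The 27 coinciding summits on chromosome X had median folds of 3.46 in pair 1 and 3.16 in pair 2, and 1 of them was inside a protein-coding gene.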
